A study of Mus musculus with 12 samples.

Results

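The regions described here are stretches of mouse DNA that lost methylation in Dnmt1 mutant bone marrow progenitors and that lie 50 kb or more from the nearest gene of the authors' annotation. They number 1808, or 5.10% of the 35439 regions on the hypomethylated list, and are those whose smallest deposited distance to a gene was at or above this threshold. The listed regions were chosen by the methylation levels of these same samples, with a loss of at least 20 percentage points, so the loss in these regions is what chose them and is given as a description without a test. The distance used no methylation value. Lineage-negative bone marrow cells, which are depleted of cells bearing markers of mature blood lineages, were compared between wild-type BALB/c mice and BALB/c mice with a mutated Dnmt1. The labels write the mutant genotype as dnmt1-/-, whereas the design text of the series describes a specific mutation modelled on hypomorphic fish alleles. The 12 samples were whole-genome methylation libraries, 6 per genotype, from 3 replicate numbers and 2 kits (TruSeq DNA Methylation and NEBNext Enzymatic Methyl-Seq). The deposited levels had 1 column per genotype and replicate number, so every mean ± SD below rests on n = 3 columns per genotype. The labels do not say whether the replicates were separate animals, and p-values therefore measure only the spread between these columns. The deposited files hold levels without read counts, so the depth behind each level is unknown. Identity of the cells could not be checked here against marker genes, since no expression was analysed, and a lower level within cells cannot be told apart from another mixture of cells.

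Dnmt1 copies methylation of CpG sites, cytosines followed by guanine, from the old onto the new DNA strand after replication. Most CpGs of a mammalian genome lie outside promoters and are methylated, including those of gene deserts, the long intervals with few or no genes. Such intervals can hold distal enhancers and genes of long non-coding RNAs (lncRNAs), many of which are missing from one or another gene annotation.

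The reference promoter sequences of RefSeq (build GRCm38.p6, 250 bases before to 50 bases after a gene's start) showed that some of these regions coincide with starts of lncRNA genes. Of 32850 promoter windows in the table, 50 windows of 41 genes touched 43 of the 1808 regions, and 39 of the 41 genes were lncRNA genes. Windows of lncRNA genes made up 11590 of the 32850. Since 1695 of the 1808 regions were 50 kb or more from every protein-coding RefSeq gene, few protein-coding starts could be touched. The share of lncRNA genes is therefore not read as a result, and the share of other listed regions touching a window was not computed. The windows below are those of lncRNA genes with at least 240 of 300 bases inside a region, taken for the 4 regions with the largest loss and the 2 with the smallest, and were chosen after their values were seen. CpG sites, the kind of site at which methylation is read, are in capitals and all other bases in lower case. Capitals mark every CG of a window, and which of them were measured was not given. Of the 4930556N09Rik window, 255 of 300 bases lay inside its region. The letters are those of the C57BL/6J reference, not of the BALB/c mice, and follow the strand of the gene.
4930556N09Rik, chr10:97035518-97035817, plus strand: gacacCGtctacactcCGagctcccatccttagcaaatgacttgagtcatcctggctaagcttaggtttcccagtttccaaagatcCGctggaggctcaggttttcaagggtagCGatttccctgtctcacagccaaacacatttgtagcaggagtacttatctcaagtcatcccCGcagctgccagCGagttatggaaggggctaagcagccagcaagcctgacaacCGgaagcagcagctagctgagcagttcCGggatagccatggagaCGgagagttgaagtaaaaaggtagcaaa
Gm36894, chr12:112237136-112237435, plus strand: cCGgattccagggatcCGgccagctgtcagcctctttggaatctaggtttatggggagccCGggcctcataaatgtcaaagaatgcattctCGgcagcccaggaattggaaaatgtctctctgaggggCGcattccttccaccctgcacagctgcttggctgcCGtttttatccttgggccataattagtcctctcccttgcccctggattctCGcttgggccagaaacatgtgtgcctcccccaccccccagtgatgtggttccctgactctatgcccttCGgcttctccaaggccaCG
Gm36234, chr7:35923044-35923343, minus strand: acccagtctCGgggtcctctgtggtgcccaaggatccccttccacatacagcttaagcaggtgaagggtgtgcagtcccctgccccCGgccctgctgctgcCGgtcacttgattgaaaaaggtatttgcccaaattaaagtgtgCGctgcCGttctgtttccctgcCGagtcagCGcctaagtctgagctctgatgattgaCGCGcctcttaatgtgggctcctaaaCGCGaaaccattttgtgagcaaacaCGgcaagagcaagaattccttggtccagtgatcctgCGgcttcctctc
Gm35193, chr13:60044949-60045248, minus strand: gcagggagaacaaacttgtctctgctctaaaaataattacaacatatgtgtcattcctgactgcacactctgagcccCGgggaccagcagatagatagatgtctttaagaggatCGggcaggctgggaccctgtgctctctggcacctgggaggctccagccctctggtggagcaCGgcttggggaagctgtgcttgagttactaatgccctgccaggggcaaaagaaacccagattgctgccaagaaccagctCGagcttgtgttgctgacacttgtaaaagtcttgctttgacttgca
Gm40948, chr13:52083558-52083857, minus strand: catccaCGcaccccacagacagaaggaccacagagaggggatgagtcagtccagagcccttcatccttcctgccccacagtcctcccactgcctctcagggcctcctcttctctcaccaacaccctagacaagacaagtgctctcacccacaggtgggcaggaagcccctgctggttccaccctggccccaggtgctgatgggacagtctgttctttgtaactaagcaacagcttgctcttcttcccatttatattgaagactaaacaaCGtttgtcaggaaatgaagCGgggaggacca
Gm46587, chr17:87570708-87571007, minus strand: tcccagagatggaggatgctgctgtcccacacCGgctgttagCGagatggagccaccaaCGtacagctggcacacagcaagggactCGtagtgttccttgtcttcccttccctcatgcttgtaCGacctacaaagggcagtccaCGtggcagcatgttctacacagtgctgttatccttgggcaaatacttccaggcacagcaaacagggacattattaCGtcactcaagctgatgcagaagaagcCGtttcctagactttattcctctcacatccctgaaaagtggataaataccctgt

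The start of 4930556N09Rik, with 9 CpGs in its window, lay in a region of chromosome 10 (97035506 to 97035772) with levels of 27.6%, 34.3% and 28.6% in mutant replicates 1 to 3 and 91.9%, 81.3% and 80.8% in wild-type replicates 1 to 3. The lowest wild-type value was above the highest mutant value by a wide margin, and the difference of -54.5 points was the largest among regions touching a promoter window. The printed Gm36894 window held 9 CpGs within a region of 32 CpGs in the interval beside Kif26a (chromosome 12, 112235950 to 112237706). That region had 26.7% ± 3.13 in mutant and 72.7% ± 2.17 in wild-type columns (SD, n = 3 per genotype). Further windows of Gm36894 touched the same region and regions that differed by -34.5 and -24.9 points. The Gm36234 window had 13 CpGs, and its region (chromosome 7, 35922461 to 35923547) had 30.0% ± 4.08 and 72.6% ± 3.63. The region of the printed Gm35193 window, which held 4 CpGs, lay between Tut7 and the growth arrest gene Gas1 (chromosome 13, 60044903 to 60045566). It differed by -39.7 points, and a region touched by another Gm35193 window by -25.15 points. At the other end, the regions at Gm40948 (3 CpGs in the window) and Gm46587 (8 CpGs) differed by -20.3 and -20.2 points, close to the minimum for listing. Windows wholly inside a region had 3 to 29 CpGs with a median of 6, against a median of 7 over all promoter windows. The 21 of lncRNA genes among them also had a median of 6, against 4 over all lncRNA windows. Of all windows, 94.6% held at least 1 CpG (the letters CG, which read the same on both strands). The 2 windows of protein-coding genes, at Zfp996 and Gm40881, were also wholly inside a region and had 25 and 29 CpGs. Over the 43 touched regions the median difference was -27.8 points, with a range from -54.5 to -20.2, against a median of -26.1 over all 1808. No region overlapped a miRNA hairpin (0 of 1808), which the distance rule largely fixed, since the deposited annotation held miRNA genes.

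The deposited distances did not mean that these regions lie far from every gene. In the authors' annotation the 1808 distances ran from 50007 to 927914 bp with a median of 82435 bp. In RefSeq (GRCm38.p6, the patched form of the mm10 assembly), 477 of the 1808 regions (26.4%) lay inside a gene span, 865 lay between 1 bp and 50 kb from one, and 466 (25.8%) were 50 kb or more from every gene. The gene spans were mostly of lncRNAs: 398 regions lay in an lncRNA gene, 59 in a protein-coding gene and 27 in a pseudogene, with some regions in more than 1 kind. From protein-coding genes alone, 1695 regions (93.8%) were 50 kb or more away, with a median of 106388 bp. The lncRNA genes with the most regions were Gm19859 with 17, Gm36894 with 15 and Gm32168 with 10. Among protein-coding genes, Lingo1, a neuronal receptor component, held 9, and the transporter gene Slc35f3 and the transcription factor gene Zfhx3 held 6 each. The deposited nearest gene could be found by symbol in RefSeq for 1349 regions, and for 1226 of these the RefSeq span gave a distance within 5000 bp of the deposited one. These nearest genes were protein-coding for 828 regions, lncRNA for 208, pseudogenes for 148 and small RNA genes for most of the rest. The regions are therefore called distal regions below, meaning 50 kb or more from a gene of the deposited annotation.

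**Figure D1:**
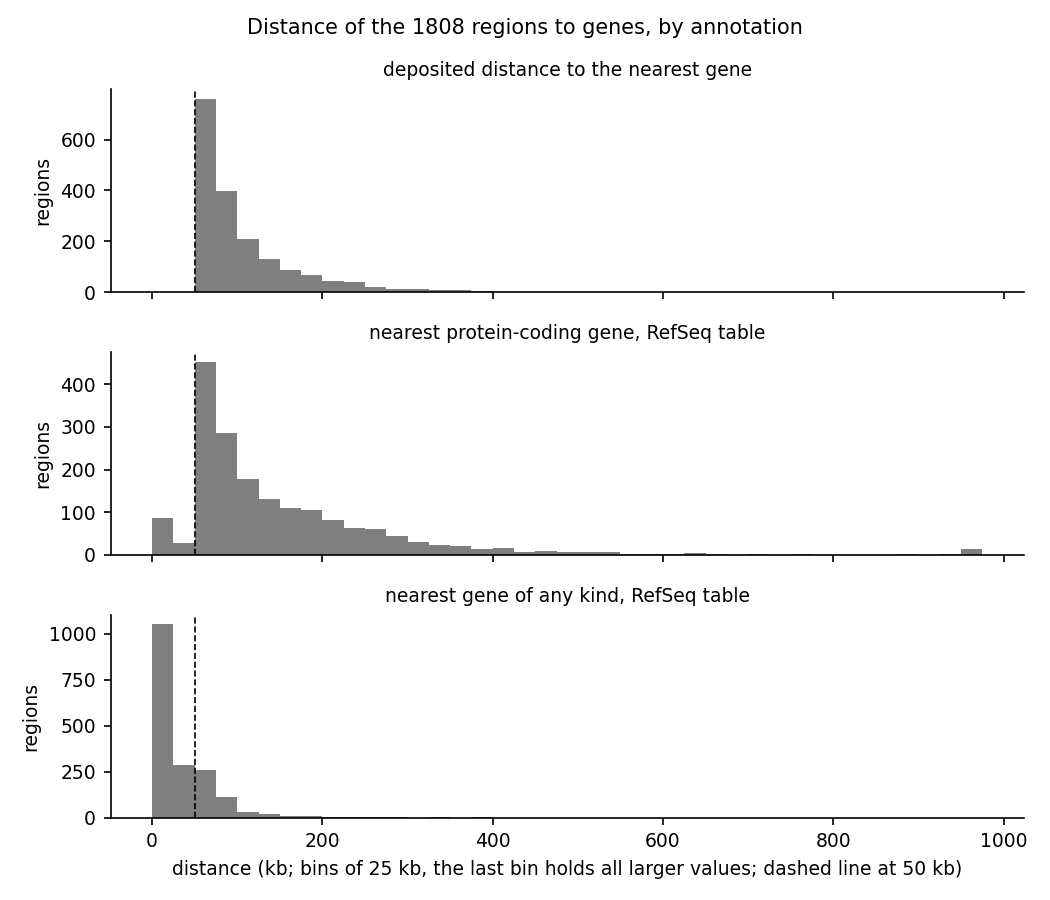
Histograms of the distance of the 1808 distal regions to the nearest gene in kb, by the deposited annotation (top), to protein-coding genes of RefSeq (middle) and to RefSeq genes of any kind (bottom); the vertical axes count regions and the dashed line marks 50 kb. Distances to any RefSeq gene fall mostly left of the line (1342 of 1808), whereas 1695 stay right of it for protein-coding genes.

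Methylation of the distal regions was high in the wild type and stood at about 64% of that level in the mutant. Averaged over the 1808 regions, mutant replicates 1, 2 and 3 had 48.0%, 49.6% and 51.6%, and wild-type replicates 1, 2 and 3 had 77.3%, 78.2% and 78.2%. The groups did not overlap. The mutant mean was 49.8% ± 1.80 and the wild-type mean 77.9% ± 0.488 (SD, n = 3 per genotype), a difference of -28.2 points or 63.9% of the wild-type level retained. Single regions differed by -62.27 to -20.02 points with a median of -26.1 and quartiles of -31.6 and -22.8. A loss of at least 40 points was found in 136 regions (7.52%, against 8.61% of the other listed regions) and of at least 50 points in 25 (1.38%, against 1.93%). Fitted with limma over all 107115 candidate regions of the deposited table with Benjamini-Hochberg adjustment, all 1808 were called lower at an adjusted p under 0.05, where 93.5% of candidate regions were. Higher levels were called in 0.0485% of candidate regions and in 0 of the 1808. All 1808 also had every mutant column below every wild-type column, which held in 94.3% of candidate regions. Since the regions were listed for this difference, nothing is read from either count. None of the 4 regions that the authors listed as hypermethylated was 50 kb or more from a gene (0 of 4).

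**Figure D2:**
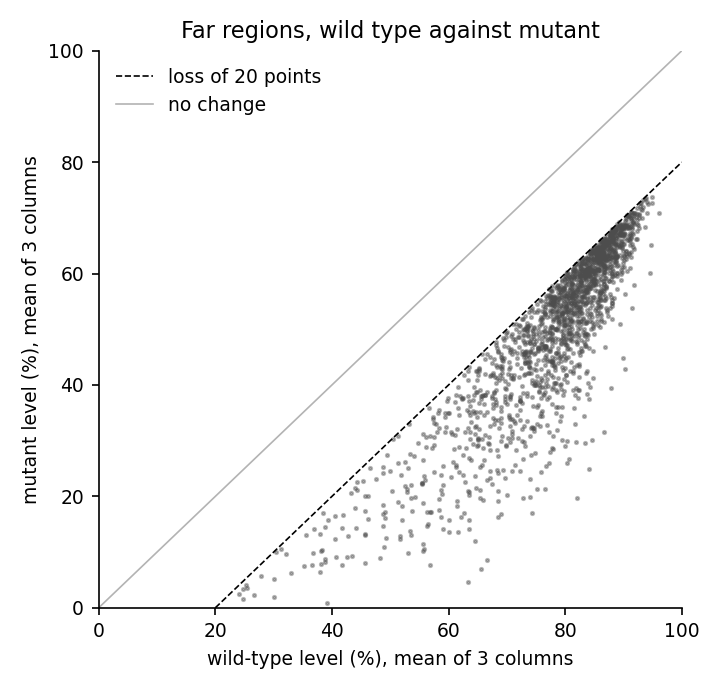
Mutant level against wild-type level in percent, each the mean of 3 columns, with 1 point per distal region; the solid line marks no change and the dashed line a loss of 20 points, the authors' minimum. Points crowd at wild-type levels of 80% to 90% (862 of 1808 regions), and all points lie below the dashed line.

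Regions with a higher wild-type level kept a larger share of it in the mutant. Of the 1808 regions, 862 (47.7%) had a wild-type level of 80% to 90%, and these had 58.3% ± 1.95 in mutant and 84.8% ± 0.593 in wild-type columns, so that 68.8% was retained. The 113 regions above 90% retained 73.8%, with a difference of -23.97 points. Between 50% and 70% in the wild type, 271 regions had 30.9% ± 1.501 and 63.1% ± 0.388, retaining 49.1% with a difference of -32.1 points. The 66 regions under 50% had 12.9% ± 0.486 and 40.3% ± 1.05, retaining 32.1%. A loss of at least 20 points was required of every region, which forces a low retained share where the wild-type level is low. Mutant levels under 10% were reached in 31 regions (1.71%, against 2.39% of the other listed regions). The lowest of these lay between Lrfn2 and Mocs1 (chromosome 17, 49172462 to 49173263), with 0.818% ± 1.12 in mutant and 39.1% ± 0.417 in wild-type columns (SD, n = 3 per genotype). Wild-type levels of the 31 regions were 24.1% to 66.6% with a median of 38.0%.

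Distal regions were slightly shorter than the other listed regions and had a similar density of CpGs. The median distal region was 688 bp long with 11 CpGs and 17.6 CpGs per kb, against 723 bp, 12 CpGs and 17.8 per kb in the other listed regions. In the sparsest tertile (up to 14.8 CpGs per kb) the level was 49.8% ± 1.88 in mutant and 76.7% ± 0.467 in wild-type columns, and in the densest (above 21.4 per kb) 49.2% ± 1.84 and 78.5% ± 0.483 (SD, n = 3 per genotype). The differences were -26.9 and -29.3 points. Across the 1808 regions the correlation of the difference with CpGs per kb was r = -0.0889 (Spearman -0.0766), and with the deposited distance r = 0.0463 (Spearman 0.0364). These are descriptions across regions of the same libraries, which are not independent replicates. The authors' metilene q was under 0.05 in 322 distal regions (17.8%) and in 23.6% of the other listed regions.

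The comparison with the other 33631 listed regions is a description, because both sets were listed for a loss of at least 20 points in these same columns, which holds their mean losses together. The other listed regions had 48.4% ± 2.33 in mutant and 76.7% ± 0.326 in wild-type columns (SD, n = 3 per genotype), a difference of -28.4 points. Within each column the distal regions were more methylated than the others, by 2.004, 1.25 and 0.916 points in mutant replicates 1 to 3 and by 0.974, 1.32 and 1.22 points in wild-type replicates 1 to 3. The genotypes overlapped in this gap, which differed between mutant and wild type by 0.217 points. Without mutant replicate 1 the difference of the gaps was -0.0908 points, so its sign rests on that column. It also moved both ways with the regions kept, to -0.781 points with a metilene q under 0.05 and to 0.973 points with at least 15 CpGs. Under both of these settings the genotypes did not overlap in the gap, but in opposite directions. With a metilene q under 0.05 the gaps were -1.467 to -0.481 points in mutant and -0.257 to -0.121 points in wild-type columns. With at least 15 CpGs they were 0.989 to 2.23 points in mutant and 0.279 to 0.738 points in wild-type columns. By distance, the wild-type level was 77.6%, 78.0% and 80.02% for 1157 regions at 50 to 100 kb, 493 at 100 to 200 kb and 158 at 200 kb or more, and the mutant level 49.3%, 50.01% and 52.3%. The differences of -28.3, -27.99 and -27.7 points in these classes lay within 1 point of the -28.3 points of regions inside genes of the deposited annotation. Mutant replicate 1 was the lowest mutant column in 47.6% of distal and 56.9% of other listed regions.

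**Figure D3:**
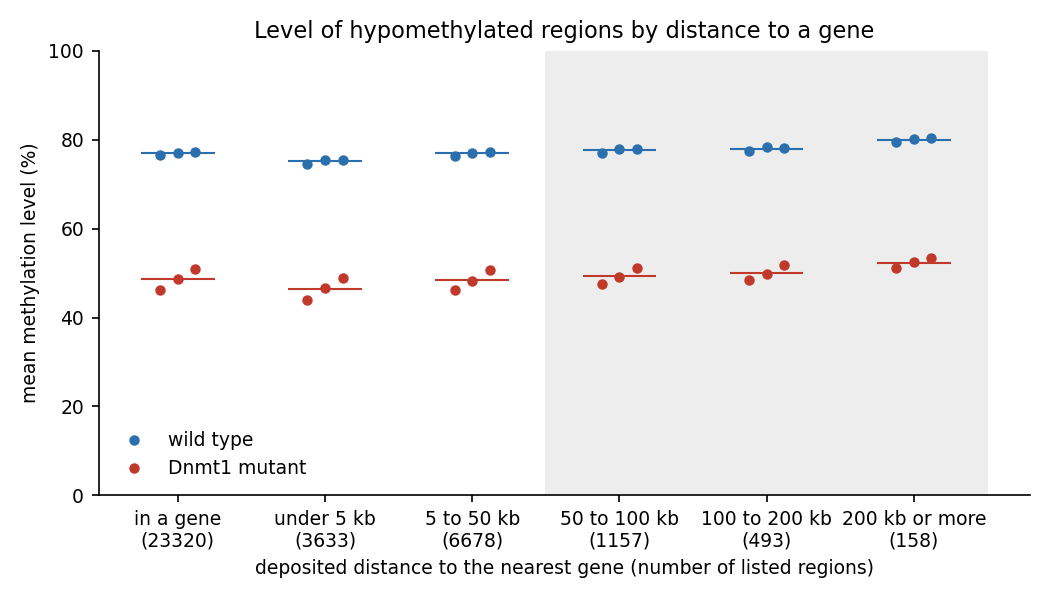
Mean methylation level in percent of the listed hypomethylated regions by deposited distance to the nearest gene, with 1 point per column, horizontal lines at the genotype means and numbers of regions in parentheses; the shaded classes are the distal regions. Wild-type means stay between 75.1% and 80.02% and mutant means between 46.5% and 52.3% in all 6 classes.

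Candidate regions outside the authors' lists were compared by their RefSeq distances, again as a description, since they are what was left once regions with larger losses were listed. Of these, 1106 were 50 kb or more from every RefSeq gene and 70504 were nearer to one. The far ones had 72.0% ± 2.17 in mutant and 85.9% ± 0.595 in wild-type columns, and the nearer ones 66.5% ± 2.24 and 79.3% ± 0.364 (SD, n = 3 per genotype). The far ones were thus more methylated in 6 of 6 columns, by 5.34 to 5.74 points in mutant and 6.32 to 6.79 in the wild type. This gap differed between mutant and wild type by -1.01 points, with no overlap of the genotypes. Compared within bins of equal wild-type level the sign turned, to 0.126 points. Among the distal regions themselves, the 466 that were also 50 kb or more from every RefSeq gene had 50.8% ± 1.79 and 78.9% ± 0.610, and the 477 inside a RefSeq gene span 49.4% ± 1.61 and 76.95% ± 0.313. Their differences were -28.2 and -27.6 points.

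The largest losses, among 322 distal regions that had 10 or more CpGs, replicates without overlap and a q from metilene below 0.05, included 3 with mutant means under 10% and others that kept up to 31.6%. First was a stretch with 11 CpGs (mm10, chromosome 13, 72897673 to 72897963) between Irx2 and Irx4, homeobox genes of the Iroquois cluster, 263476 bp from Irx2. It had 25%, 20.8% and 13.4% in mutant replicates 1 to 3 and 86.6%, 72.5% and 86.9% in wild-type replicates 1 to 3. Wild-type replicate 2 was the low one of its group, and the difference was -62.3 points. Between Mki67, which encodes the proliferation antigen Ki-67, and the DNA repair gene Mgmt, a region of 21 CpGs (chromosome 7, 136583674 to 136584715) had 9.95%, 4.85% and 6.15% in mutant and 65.8%, 68.1% and 62.8% in the wild type. All 3 mutant values were under 10% there. A region between Tfap2c, an AP-2 transcription factor gene, and Bmp7, a bone morphogenetic protein gene (chromosome 2, 172736893 to 172738003, 18 CpGs), had 21.3% ± 6.62 in mutant and 76.6% ± 3.27 in wild-type columns (SD, n = 3 per genotype).

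Replicate spread differed among the other 7. Between Kif2a, a kinesin gene, and Zswim6 (chromosome 13, 107493776 to 107494184) the mutant replicates spread over 9.62%, 29.2% and 39.3%, and the wild type had 79.2%, 84.9% and 76.9%. Mutant replicate 1 stood well below the other two. A region between Thap1 and Zfp703 (chromosome 8, 26352236 to 26353040) also had its lowest mutant value, 7.15%, in replicate 1, and its mutant mean was 17.0% ± 9.15. In the interval between 1700129C05Rik, 56588 bp away, and the growth factor gene Fgf9, 963479 bp away (chromosome 14, 59076333 to 59076447), the level was 4.70% ± 4.79 and 63.4% ± 9.50. Between Obi1 and the RNA-binding protein gene Rbm26 (chromosome 14, 105023976 to 105024443) it was 8.67% ± 4.89 and 66.6% ± 3.57. The region between Enc1 and Arhgef28 (chromosome 13, 97824134 to 97824654) had 24.97% ± 3.58 and 84.1% ± 3.05. The region between Med13l and the T-box gene Tbx3 (chromosome 5, 119408248 to 119408383) had 31.6% ± 8.33 and 86.7% ± 2.75 (SD, n = 3 per genotype). The remaining region, at the start of 4930556N09Rik 443728 bp from the decorin gene Dcn, is the one whose sequence opens the set above. For the 38 regions named by rule, limma's adjusted p ran from 5.2e-06 to 0.00143, which restates their selection. The highest of these belonged to a listed region just outside the distance threshold, 49950 bp from Bdh1. Many of the 38 did not reach a metilene q under 0.05. The q was 0.33 between Olfm4 and Pcdh17, 0.31 for the largest loss between Syf2 and Runx3, and 0.25 between Cntnap4 and Mon1b. Others were higher, such as 0.68 for the region 50007 bp from Gm25038. The q was at its maximum in the regions named between Celf4 and Pik3c3, Hace1 and Grik2, and Bcl6 and Lpp. It was also at its maximum between Grik3 and Csf3r, Unc5d and Dusp26, and Igfbp7 and Adgrl3.

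**Figure D4:**
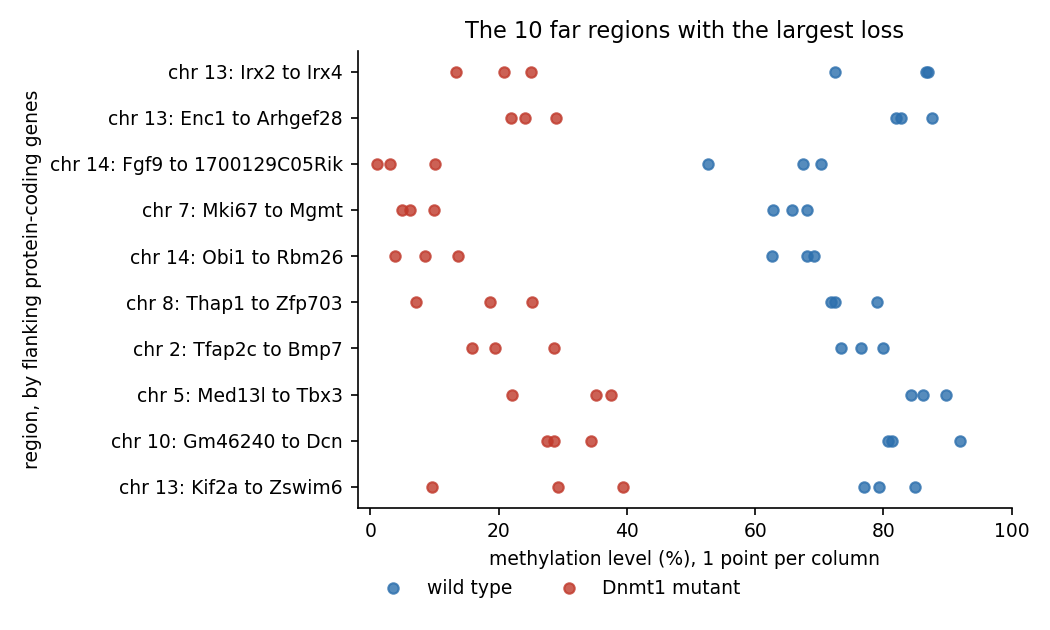
Methylation level in percent (horizontal axis) of the 10 distal regions with the largest loss, with 1 point per column, labelled by chromosome and flanking protein-coding genes. Mutant points lie at or below 39.3% and wild-type points at or above 52.6%, and the mutant points spread most between Kif2a and Zswim6.

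Farthest from any gene of the deposited annotation were regions with high wild-type levels, and 4 of the 5 farthest are given. These 4 differed by -25.97 to -21.1 points, against a median of -26.1 over all distal regions. The greatest distance, 927914 bp, belonged to a region between the RNA-binding protein gene Celf4 and Pik3c3, a phosphoinositide kinase gene (chromosome 18, 29344526 to 29344833). It had 74.3%, 66.2% and 61.8% in mutant replicates 1 to 3 and 85.9%, 88.6% and 91.2% in wild-type replicates 1 to 3. The genotypes did not overlap, and the difference was -21.1 points. A second region of that interval (29733997 to 29734152) lay 538595 bp from Pik3c3 and differed by -25.8 points. The region between Olfm4 and the protocadherin gene Pcdh17 (chromosome 14, 81560727 to 81560967) had 65.1% ± 4.42 in mutant and 91.1% ± 3.77 in wild-type columns, and was 1537586 and 2882596 bp from these genes. Between Hace1 and the glutamate receptor gene Grik2 (chromosome 10, 47684881 to 47685188) the level was 67.6% ± 2.11 and 92.3% ± 2.54 (SD, n = 3 per genotype). In RefSeq these 4 regions had an annotated gene within 25702 to 123317 bp.

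Of the 5 distal regions with the most CpGs, 3 lay on chromosome 12 between positions 18135256 and 19044782. That part of the chromosome carries the zinc finger gene Zfp996 and Gm9241, and Gm9222 lies 195601 bp before it. A region of 91 CpGs (18135256 to 18136470), in the RefSeq transcribed pseudogene LOC108167983, had 32.97% ± 5.13 in mutant and 57.8% ± 3.10 in wild-type columns. The region of 69 CpGs at the start of Zfp996 (18386823 to 18387853) had 15.8% ± 1.96 and 39.3% ± 5.41. The one of 45 CpGs (19043973 to 19044782), in the RefSeq protein-coding gene Gm40847, had 17.9% ± 3.79 and 44.0% ± 6.004 (SD, n = 3 per genotype). These wild-type levels were low for distal regions. In the last of these, the authors' table gave 22 of 76 CpGs as missing, whereas over all distal regions 10.9% were. Beside the kainate receptor gene Grik3, a region of 45 CpGs (chromosome 4, 125398499 to 125402032) had 53.2% ± 4.28 and 79.7% ± 1.41. Near the placental hormone gene Prl2c2, a region of 42 CpGs (chromosome 13, 12930383 to 12932403) had 58.3% ± 2.66 and 82.6% ± 2.45. Genes of these zinc finger and prolactin families have close copies, and whether reads were divided among copies was not tested.

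At the distance threshold, the 3 regions just inside lay 50007 bp from Gm25038, 50024 bp from Scgb2a2 and 50057 bp from Gm29104, with differences of -23.3, -24.8 and -20.4 points. The 3 listed regions just outside lay 49971 bp from Slc38a1, 49961 bp from Jarid2 and 49950 bp from Bdh1, with differences of -34.4, -23.97 and -23.4 points.

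Distal regions were unevenly spread over the genome. Among autosomes, chromosome 13 had 177, or 17.6% of its 1006 listed regions, followed by chromosomes 18 (89, 10.99%), 12 (159, 10.8%) and 9 (181, 9.19%). The lowest shares were on chromosomes 11 (51 of 3338, 1.53%), 6 (25 of 1556, 1.61%) and 1 (38 of 1737, 2.19%). Chromosome X had 4 of 28 (14.3%), and chromosome Y 0 of 10. Mean differences of the distal regions by chromosome ran from -30.1 points on chromosome 5 to -24.5 points over the 4 regions of chromosome X. Many lay close together: 891 (49.3%) had another distal region within 10 kb, and 664 (36.7%) fell into 41 windows of 1 Mb that held at least 10 each. Another 224 had none within 1 Mb. Such neighbours share their position and cannot be counted as separate events. Spacing of the other listed regions was not computed, so closeness is not read as a trait of distal regions.

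**Figure D5:**
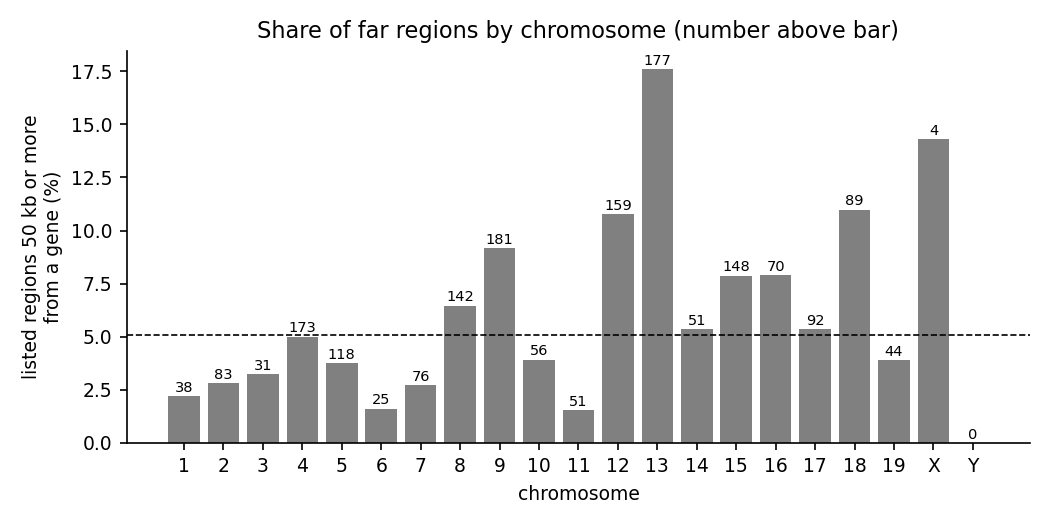
Share of the listed hypomethylated regions that are 50 kb or more from a gene of the deposited annotation, in percent by chromosome, with the number of distal regions above each bar and a dashed line at the share over all listed regions (5.10%). Chromosome 13 stands highest at 17.6% and chromosome 11 is the lowest autosome at 1.53%.

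The 3 windows of 1 Mb with the most distal regions were on chromosomes 15 and 9. In the order given below, they held 107, 96 and 43 listed regions of any distance. On chromosome 15, 45 distal regions lay between 74007033 and 74451332 beside Adgrb1, which encodes an adhesion receptor of brain and phagocytes. Their mean levels were 44.7%, 45.6% and 47.1% in mutant replicates 1 to 3 and 75.4%, 75.4% and 76.2% in wild-type replicates 1 to 3. The groups were far apart and tight, with a difference of -29.9 points. Of these 45 regions 30 lay in RefSeq lncRNA genes, 17 of them in Gm19859 and 10 in Gm32168. On chromosome 9, 31 regions between 43386927 and 43973863 lay around Nectin1, a cell adhesion gene, Thy1, a T cell surface glycoprotein gene, and Trim29, with 43.4% ± 1.79 in mutant and 75.1% ± 1.41 in wild-type columns. A further 31 regions on chromosome 9 (61024339 to 61830250) lay around the corepressor gene Tle3, the ribosomal protein gene Rplp1 and Uaca, with 55.9% ± 2.61 and 81.0% ± 0.990 (SD, n = 3 per genotype). The difference in this window, -25.1 points, was smaller than in the other two. In all 3 windows, 0 distal regions were 50 kb or more from every RefSeq gene.

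Genes of 5 lists were looked up as neighbours of the distal regions, and developmental transcription factor genes, the longest list, flanked the most. A region was assigned to a list when its nearest RefSeq protein-coding gene on either side belonged to it. Over all 21900 RefSeq protein-coding genes, 1087 (4.96%) flanked a distal region. The shares in the lists ranged from 13.9% to 41.7%, but the lists were chosen with earlier results known, interval lengths were not matched, and no difference in share was tested. Of 97 developmental transcription factor genes, 40 flanked a distal region, 172 regions in all, with a median difference of -26.6 points against -26.1 over all distal regions. Mean levels were 47.4% ± 1.30 in mutant and 77.1% ± 0.584 in wild-type columns (SD, n = 3 per genotype). Tfap2c flanked 25 regions with levels of 40.3% ± 0.792 and 73.1% ± 1.66. Sall3, a zinc finger gene of limb and nerve development, flanked 18 with a median of -26.0 points, and Pitx1, a hindlimb identity gene, 14 with -25.6. All 6 Iroquois genes flanked distal regions: Irx2 flanked 12 with a median of -32.5 points, Irx4 9 with -28.9, Irx5 7 with -27.2, Irx1 6 with -37.2, Irx3 5 with -38.3 and Irx6 5 with -26.4. At Irx2 the mean levels were 40.4%, 42.5% and 39.9% in mutant replicates 1 to 3 and 76.7%, 76.2% and 76.7% in wild-type replicates 1 to 3. The medians ran from close to that of all distal regions (-26.1) at Irx6 to the largest loss at Irx3, and they rest on few neighbouring regions, some of them shared between 2 Iroquois genes. Differences from the other regions were not tested.

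Of 36 lymphoid regulator genes 8 flanked 28 distal regions, with a median difference of -22.7 points, nearer to the listing minimum than the -26.1 of all distal regions. Mean levels were 54.1% ± 2.34 in mutant and 78.5% ± 0.415 in wild-type columns (SD, n = 3 per genotype). Runx3, a transcription factor gene of T and natural killer cells, flanked 10 of them with levels of 52.2% ± 3.504 and 78.7% ± 0.0986. The region of largest loss there lay between Syf2 and Runx3 (chromosome 4, 135026266 to 135026724), 93921 bp from Runx3. It had 12.4%, 14.0% and 18.7% in mutant replicates 1 to 3 and 57.7%, 53.3% and 58.2% in wild-type replicates 1 to 3. Both groups were tight, and the difference was -41.4 points. A neighbour in the same interval (134997626 to 134998021) had 54.7% ± 7.39 and 88.0% ± 0.170. Between Bcl6, a repressor gene of germinal centre B cells, and Lpp (chromosome 16, 24239346 to 24240036) the level was 45.3% ± 9.13 and 79.9% ± 6.91. Bcl11b, the T cell commitment gene, flanked 4 regions from 56446 to 647757 bp away with a median of -21.7 points, and Id2, an inhibitor of E proteins, flanked 3 with -23.0 points. Nfatc1 flanked 4 regions, and Bcl11a, Pax5 and Zeb2 flanked 1 each.

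Of 36 stem cell and myeloid regulator genes 5 flanked distal regions: Runx1 and Csf3r with 5 each, Tgfbr2 with 2, and Klf4 and Mycn with 1 each. The 14 regions had a median difference of -24.8 points and levels of 46.3% ± 2.11 in mutant and 75.01% ± 1.03 in wild-type columns (SD, n = 3 per genotype). Beside Tgfbr2, a transforming growth factor receptor gene, a region 66130 bp away (chromosome 9, 116241493 to 116241869) had 31.9%, 25.3% and 38.8% in mutant and 79.3%, 81.8% and 74.6% in the wild type. The difference was -46.6 points with no overlap. In the interval between Runx1, a regulator of blood stem cell formation, and Setd4 (chromosome 16, 93532273 to 93532721), 1 region had 46.9%, 35.3% and 35.0% in mutant and 80.1%, 86.8% and 79.7% in the wild type. It lay 706199 bp from Runx1 and 50736 bp from Setd4. The other Runx1 regions lost less, since the median of its 5 was -21.7 points. Csf3r, the receptor gene for granulocyte colony-stimulating factor, flanked 5 regions with a median of -31.3 points and levels of 42.4% ± 0.953 and 73.9% ± 0.481. The largest loss of these, in the interval shared with Grik3 (chromosome 4, 125810434 to 125811259), was -36.1 points.

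Of 64 neuronal adhesion and synaptic genes 23 flanked 46 regions, and of 24 cadherin and protocadherin genes 10 flanked 28. Wild-type levels were high in both lists, with medians of 86.1% and 86.2% against 80.8% over all distal regions, and median differences were -24.7 points in each. Between Cntnap4 and Mon1b (chromosome 8, 113583214 to 113584386) the level was 38.3% ± 7.09 in mutant and 76.2% ± 3.10 in wild-type columns. Between the netrin receptor gene Unc5d and Dusp26 (chromosome 8, 30915461 to 30916026) it was 18.9% ± 2.20 and 55.7% ± 4.01, and between Igfbp7 and the latrophilin gene Adgrl3 (chromosome 5, 77804125 to 77805005) 36.4% ± 4.38 and 71.6% ± 2.22 (SD, n = 3 per genotype). Cdh13, the T-cadherin gene, flanked 8 regions, and the largest loss there was -39.1 points (chromosome 8, 117860543 to 117861198). A region between Cdh11 and the endothelial cadherin gene Cdh5 (chromosome 8, 104036406 to 104037544), inside the lncRNA gene Gm32728, differed by -38.4 points. The region between Got2 and Cdh8 (chromosome 8, 95987124 to 95987455) had 5.90%, 13.0% and 5% in mutant replicates 1 to 3 and 53.0%, 43.0% and 40.9% in wild-type replicates 1 to 3. All 3 mutant values were far below the wild-type values, with a difference of -37.7 points.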

How the data were processed

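Levels of methylation were measured by whole-genome sequencing after bisulfite or enzymatic conversion. The authors deposited a fraction between 0 and 1 per candidate region and column, and lists with their mean fractions, a score (the difference of these means), q-values and p-values, CpG numbers and distances to genes. Candidate regions came from metilene, per the file names, and their build was mm10 according to notes on processing by the submitters. Aligner, methylation caller and any merging of both kits were not given in the sources used here. Fractions were turned into percent. Printed levels average the 3 columns of a genotype and departed from the deposited means by at most 6.23 points (mutant) and 8.23 points (wild type).

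Rows of a region were merged by its smallest absolute distance. The 6 columns were assigned by name. Without counts, no minimum of coverage could be set. Regions were fitted with limma 3.58.1 in R 4.3.3 over all 107115 candidates with Benjamini-Hochberg adjustment, checked on simulated levels. Differences in gap between sets are given without the planned permutation p-values, since listing depended on the change. Distances to RefSeq spans were computed with Python 3.11.15, numpy 2.4.6 and pandas 2.3.3. The regions, gene lists and tests were chosen with earlier results of these data known. Named regions were the 10 largest losses (metilene q under 0.05, at least 10 CpGs, separated replicates), the 5 farthest, the 5 with the most CpGs, 3 on each side of the threshold, up to 3 per list, and the 3 fullest windows of 1 Mb. Alternatives changed the scale, the variance model, the distance, the list threshold, the weighting and the replicates used. One of the farthest regions is not reported here.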

Additional observations from a re-analysis of the deposited data

How the results depend on the processing

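All 1808 distal regions were called lower in all 10 alternative limma fits or thresholds, and the 38 named regions kept their call and direction in each of 9. These regions were listed for a loss in the same columns, so nothing is read from these counts. Of the other listed regions, 99.93% to 100% were called lower in the same alternatives. Over all candidate regions 36772 were called lower when a loss of 20 points was also required, against 100125 without it. Leaving out 1 replicate gave 95623 to 100046 calls. The difference in gap between distal and other listed regions (0.217 points) was close to 0 and changed sign without mutant replicate 1, ranging from -0.0908 to 0.453 points when 1 replicate was left out, and was -0.211 points with a threshold of 20000 bp and -0.781 points with a metilene q under 0.05. It was larger at 0.455 points with a threshold of 100 kb, 0.505 points when weighted by CpGs and 0.973 points with at least 15 CpGs. The cause was not tested. The difference outside the lists (-1.01 points) ranged from -1.13 to -0.892 points when 1 replicate was left out, and changed sign on a logit scale (0.0111 log2 units) and within bins of wild-type level (0.126 points), an alternative added after seeing the data. Whether replicate numbers pair the genotypes is not given by the labels and was not settled here. Deviations of equal numbers correlated by only 0.00490 to 0.04998, although each mutant column correlated best with its own number. With the replicate block 99903 regions were called lower, and the differences in gap are by construction the same 0.217 and -1.01 points. Without counts, the depth behind any single level, and so its counting error, cannot be given.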
